A study of Mus musculus with 9 samples.

Results

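Liver makes most of the proteins of blood coagulation and of the complement system. The genes described here are 41 such genes, taken by symbol from the deposited table of gene counts: 23 of coagulation, fibrinolysis and related adhesive plasma proteins, and 18 of complement. All 41 were found among the 24411 genes of the table, and all passed the filter on low counts that left 11199 genes for testing. Poly(A) RNA had been sequenced from 9 mouse livers of C57BL/6 background at 3 months of age, with 3 livers a group. The control livers, labelled cont., came from mice with both Atg7 alleles floxed and without Cre (Atg7flox/flox). The Atg7-KO livers came from Atg7flox/flox;Alb-Cre mice, in which the albumin promoter drives Cre in hepatocytes, so that the other cells of the liver keep Atg7. The S351A livers came from Atg7flox/flox;Alb-Cre;p62S351A/p62S351A mice, which carry in addition the S351A allele of p62 on both copies. The floxed Atg7 allele is shared by all 3 groups. Groups follow the titles of the samples. The genotype entries of S351A replicates 2 and 3 name another p62 position than their titles do, and the allele cannot be read from gene counts.

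In coagulation, serine proteases that circulate as inactive precursors cut one another in sequence until thrombin, made from prothrombin, turns fibrinogen into fibrin, and plasmin, made from plasminogen, later dissolves the clot. Several of these proteases need a vitamin K-dependent carboxylation before they leave the hepatocyte. In complement, the classical, lectin and alternative routes each lead to cleavage of C3 and then of C5, after which C6 to C9 assemble into a pore in the target membrane. Both systems are held in check by plasma inhibitors, many of which are also made by hepatocytes.

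The libraries held 713835 to 15426566 counts. The S351A libraries were the shallowest, with 713835 to 792366 counts against 1875314 to 15426566 in control and 1945469 to 3675041 in Atg7-KO, so sequencing depth and the p62 allele cannot be told apart. Levels are CPM (read counts scaled to a common library total) after TMM factors, and 3 counts, taken as the floor of a library, corresponded to 0.269 to 3.73 CPM. The lowest count of any member in any library was 7, for Masp1. Xist and Y-linked genes marked 1 control liver as female and 2 as male, against 2 female livers and 1 male in Atg7-KO as in S351A. Atg7 itself was at 45.1, 57.8 and 42.4 CPM (control), 30.2, 28.0 and 28.4 CPM (Atg7-KO) and 21.8, 24.8 and 22.2 CPM (S351A), below every control liver in all 6 livers with Cre. The table gives 1 value per gene, so the floxed exon could not be counted apart from the rest of Atg7. Alb and the other hepatocyte markers were the most abundant of the marker genes in every group, as the tissue label says.

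In Atg7-KO, coagulation and complement mRNAs were mostly lower than in control. Of the 41 genes, 25 (61%) were called lower and 1 (2.44%), Cpb2, was called higher, where called means an adjusted p under 0.05 in edgeR's quasi-likelihood test over all 11199 genes and a fold change above 1.5. The background of that call rule was 18.1% of all genes tested called lower and 19.9% called higher. The median log2 fold change of the 41 genes was -1.05, that is, a level of 0.484 of control, while the median of all genes tested was -0.03. In 28 of the 41 genes every Atg7-KO liver lay below every control liver, against 24.9% of all genes tested, and in 3 genes (Pros1, Cpb2 and C4bp) every Atg7-KO liver lay above, against 26.7% of all genes. The fitted change was negative for 37 of the 41, for 27 with total library size as the scaling, and for 32 with library size counted after removing the top 20 genes by count. With total library size 16 were called lower and 3 higher, against 7.11% and 38.5% of all genes, with a median of -0.52. With the top 20 removed there were 19 lower and 3 higher, against 8.72% and 33.7% of all genes, with a median of -0.62. The median shift of a gene under these 2 scalings, over all genes, was 0.549 and 0.435 on the log2 scale, and the directions below are relative to TMM. The list was taken up with results of these data known, so the counts are a description of these genes and no test of the list.

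**Figure D1:**
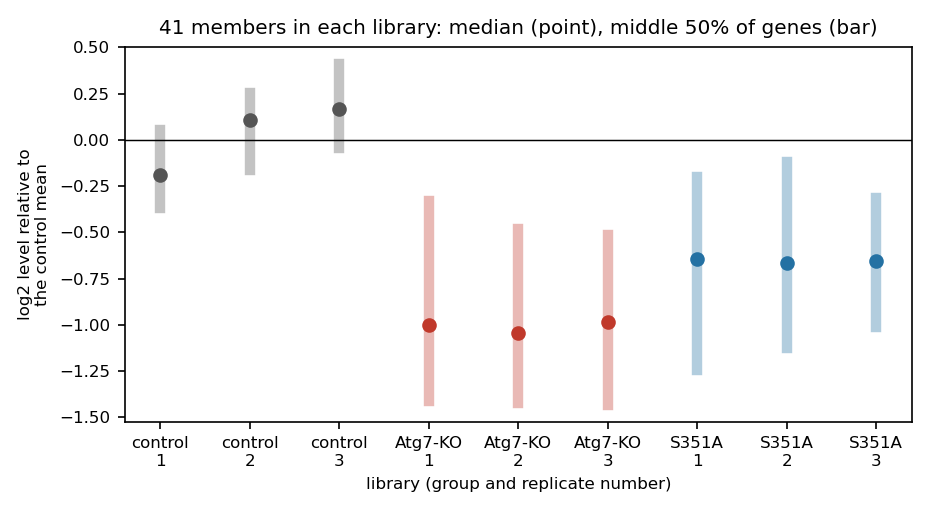
Log2 level of the 41 genes in each library relative to the mean of the 3 control libraries. Points are medians over genes and bars span the middle 50% of the genes. The medians lie from -0.19 to 0.17 in control, from -1.04 to -0.98 in Atg7-KO and from -0.67 to -0.65 in S351A.

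The 41 genes together took 2.65% ± 0.357 (SD, n = 3) of the counts in control, 1.94% ± 0.128 (SD, n = 3) in Atg7-KO and 2.18% ± 0.0212 (SD, n = 3) in S351A. Per kilobase of exon, the most abundant member in control was Vtn at 1444 CPM per kb, followed by Kng1 at 922 and C3 at 737, and the least abundant was Masp1 at 1.21. In Atg7-KO, C3 stood first at 532 CPM per kb, ahead of Vtn at 476. C8g moved from 9th in control (417 CPM per kb) to 22nd in Atg7-KO (83.7), and C8a from 18th (216) to 33rd (27.0). Cpb2 moved the other way, from 25th (113) to 9th (229).

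**Figure D2:**
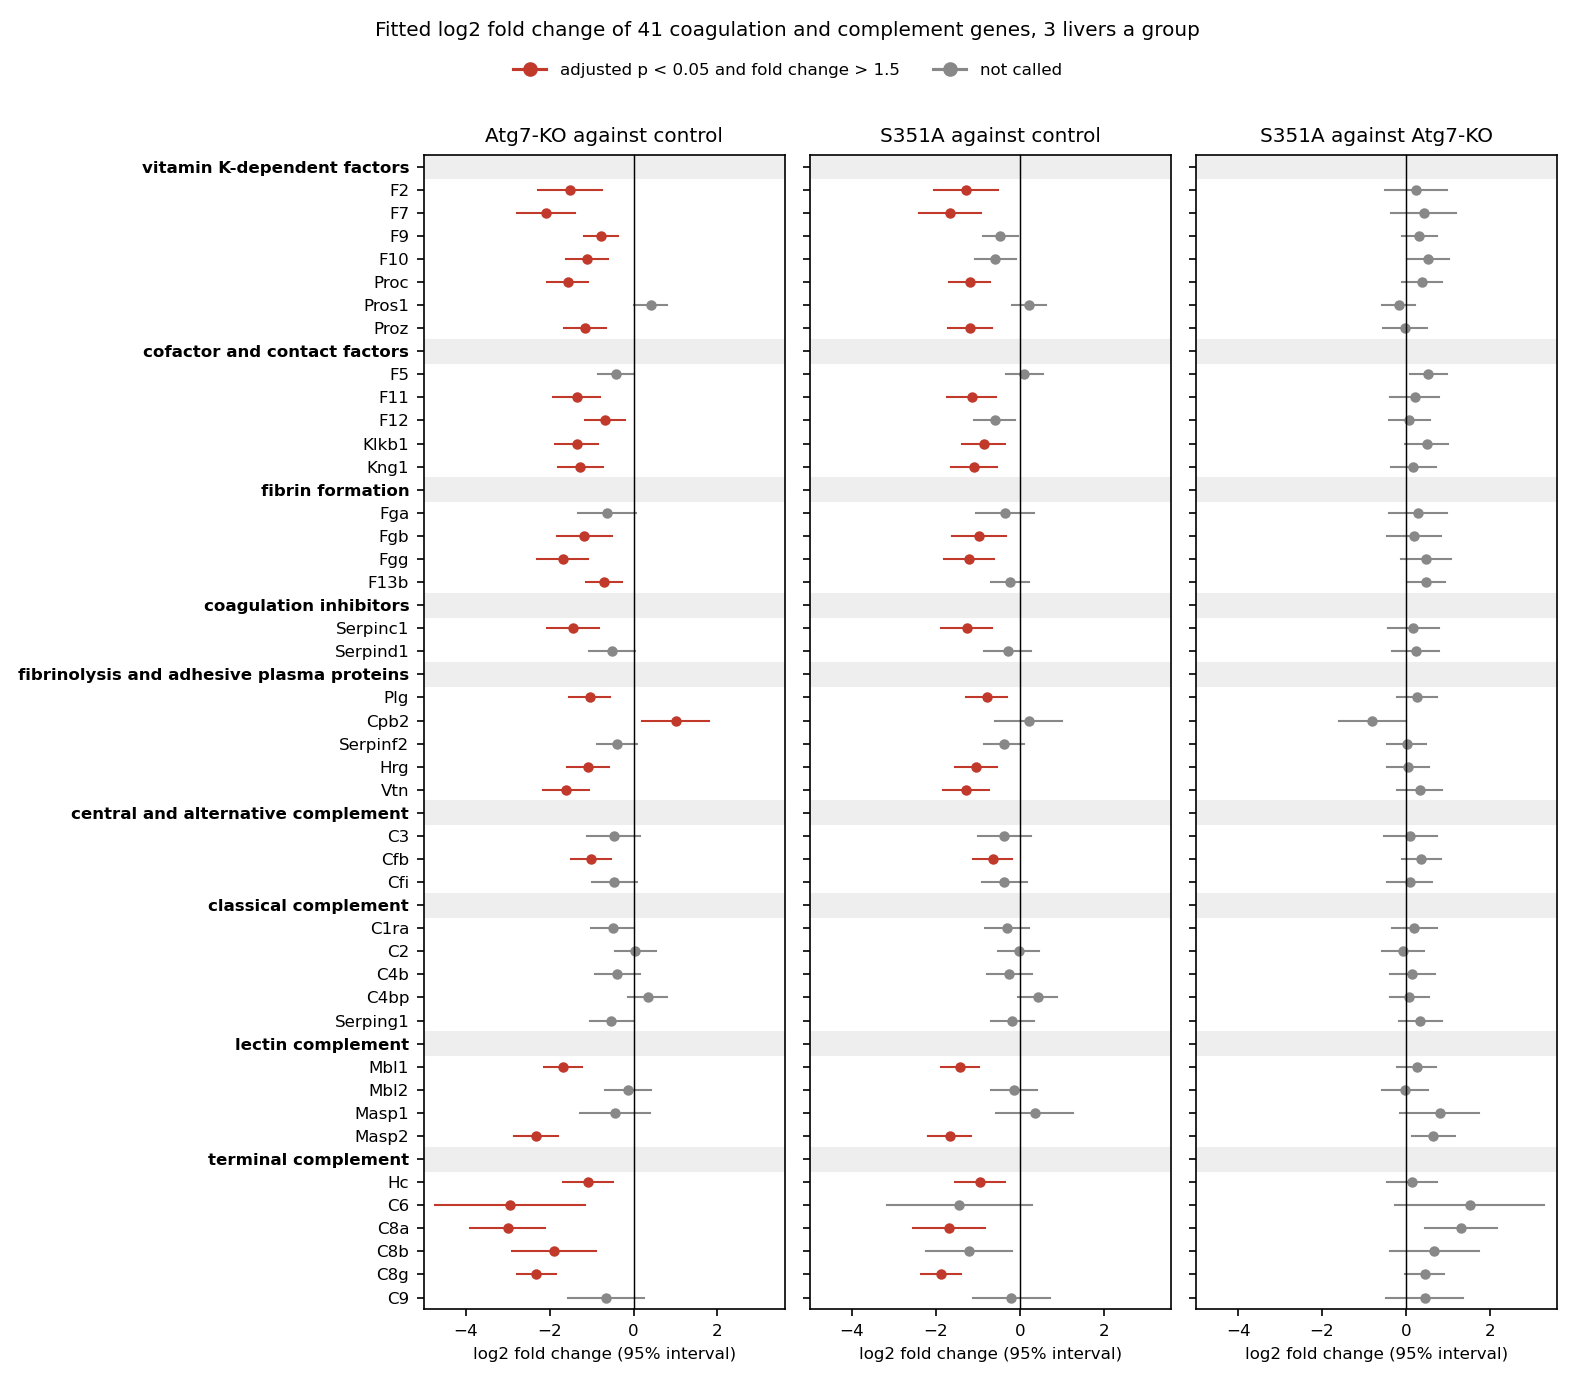
Fitted log2 fold change (horizontal axis) with its 95% interval for each of the 41 genes, grouped by role, in the 3 comparisons. Red marks genes past the adjusted p and fold thresholds. In Atg7-KO against control 25 genes are red on the left and 1, Cpb2, on the right; in S351A against control 19 are red on the left; no gene is red in S351A against Atg7-KO. Grey genes can change side with the scaling.

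Of the 7 vitamin K-dependent factors, 6 fell in Atg7-KO and 1, Pros1, did not pass the test. F7, the factor that starts the extrinsic pathway with tissue factor (on the + strand of chromosome 8, 13026034 to 13035809, mm10), was at 57.8, 116 and 100.2 CPM (control), 25.1, 17.9 and 22.0 CPM (Atg7-KO) and 16.1, 28.6 and 43.2 CPM (S351A). All Atg7-KO and S351A livers lay below all control livers, and the fall was the largest of the group (log2 fold change -2.08, SE 0.32, adjusted p = 0.000329). The S351A values of F7 rest on 14 to 35 counts. F10, which makes up the enzyme that activates prothrombin, lies 1498 bp from F7 and was at 807, 945 and 617 CPM (control), 359.6, 377 and 365 CPM (Atg7-KO) and 479, 615 and 494 CPM (S351A). Its groups did not overlap, with control highest and Atg7-KO lowest (log2 fold change -1.10, SE 0.23, adjusted p = 0.00249 for Atg7-KO). Total library size ended that call (-0.58, adjusted p = 0.0634).

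F2, the prothrombin gene, was at 1080.5 ± 532 CPM in control and 377 ± 28.7 CPM in Atg7-KO (log2 fold change -1.52, SE 0.35, adjusted p = 0.00448), and its control values were uneven, with 476 CPM in replicate 1 against 1479 and 1286 CPM in the others. F9, the haemophilia B factor on the X chromosome, went from 149 ± 12.6 CPM to 86.9 ± 4.42 CPM (log2 fold change -0.78, SE 0.19, adjusted p = 0.00582), a call that was lost with total library size (-0.25, adjusted p = 0.333), with the top 20 genes removed from it (-0.36, adjusted p = 0.159) and after thinning all libraries to the smallest (-0.60, adjusted p = 0.0674). Proc, which encodes the anticoagulant protein C, went from 1172 ± 226 CPM to 394 ± 20.9 CPM (log2 fold change -1.57, SE 0.23, adjusted p = 0.000224). Proz, whose product is the cofactor of the protein Z-dependent protease inhibitor, went from 147 ± 36.4 CPM to 65.9 ± 5.15 CPM (log2 fold change -1.17, SE 0.23, adjusted p = 0.00182). The genes that fell thus include procoagulant members of the group and the anticoagulant Proc.

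Pros1 encodes protein S, the cofactor of protein C. It was at 78.8, 70.1 and 67.3 CPM (control), 98.4, 93.3 and 93.8 CPM (Atg7-KO) and 91.9, 88.2 and 72.8 CPM (S351A). Every Atg7-KO liver was above every control liver, and the difference did not pass the adjusted threshold (log2 fold change 0.41, SE 0.18, adjusted p = 0.0912); total library size (0.94) brought Pros1 to a call, as did that scaling with the top 20 genes removed from it. Serpina10, the inhibitor that protein Z serves, is no member; its level was 144 ± 10.2 CPM in control and 269 ± 3.56 CPM in Atg7-KO (log2 fold change 0.90, SE 0.19, adjusted p = 0.00303), a change opposite in sign to that of Proz.

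The machinery for carboxylation and secretion was read from a list of 7 genes, of which 2 fell and none rose in Atg7-KO. Ggcx, the carboxylase that acts on the vitamin K-dependent factors, went from 59.4 ± 27.2 CPM to 28.7 ± 4.74 CPM (log2 fold change -1.07, SE 0.28, adjusted p = 0.0103). Furin, a protease that trims proprotein forms, changed by a log2 fold change of -0.63. The other 5 (Vkorc1, Vkorc1l1, Lman1, Mcfd2 and Pcsk5) had log2 fold changes between -0.48 and -0.17 and did not pass the test.

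Among the cofactor and contact factors, 4 of 5 genes fell. F5, the cofactor of factor Xa (on the + strand of chromosome 1, 164151838 to 164220277), was the exception, at 454, 512 and 444 CPM (control), 356, 371 and 328 CPM (Atg7-KO) and 481, 571 and 469 CPM (S351A). Every Atg7-KO liver was below every control liver, but by less than the test resolved (log2 fold change -0.42, SE 0.20, adjusted p = 0.121), and the direction turned with total library size (0.12). Klkb1, which encodes plasma prekallikrein (on the - strand of chromosome 8, 45266689 to 45294859), had the lowest fitted change, from 597, 483 and 356 CPM in control to 175, 206 and 180.3 CPM in Atg7-KO (log2 fold change -1.36, SE 0.24, adjusted p = 0.000854), and stood at 229, 263 and 301 CPM in S351A. Its neighbour F11, 4.66 kb away and encoding the related factor XI, went from 208 ± 51.4 CPM to 81.7 ± 11.4 CPM (log2 fold change -1.35, SE 0.26, adjusted p = 0.0015). Kng1, the kininogen from which kallikrein releases bradykinin, went from 2997 ± 712 CPM to 1246 ± 68.8 CPM (log2 fold change -1.27, SE 0.25, adjusted p = 0.00176). Its paralog Kng2, counted in the wider coagulation list, went from 359 ± 96.1 CPM to 173 ± 15.9 CPM (log2 fold change -1.05, SE 0.23, adjusted p = 0.00338). Reads can be shared between these near copies. F12, the contact factor that activates prekallikrein, went from 531 ± 108 CPM to 332 ± 17.4 CPM (log2 fold change -0.68, SE 0.22, adjusted p = 0.0283). The F12 call was lost in more alternatives than any other of the 25, namely with total library size (-0.14, adjusted p = 0.618), with the top 20 genes removed from it, after thinning, with the 6 compared libraries alone, and without control replicate 2 (adjusted p = 0.0869) or any 1 of the Atg7-KO replicates (adjusted p = 0.0734 to 0.0969). Klkb1 overlaps the predicted gene Gm45753, so part of its reads may have been divided by the estimate.

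Of the 4 genes of fibrin formation, 3 fell and Fga did not pass the test. The 3 fibrinogen chains are encoded by neighbouring genes on chromosome 3, in the order Fgg, Fga and Fgb, with gaps of 11 and 6.51 kb, and the protein holds the chains in equal numbers. Fgg (on the + strand of chromosome 3, 83007724 to 83015049) was at 769.8, 1230.0 and 1564 CPM (control), 437, 368 and 303 CPM (Atg7-KO) and 518, 534 and 494 CPM (S351A). No Atg7-KO or S351A liver reached the lowest control liver (log2 fold change -1.69, SE 0.28, adjusted p = 0.000597). Fgb went from 2298 ± 848 CPM to 1019.9 ± 30.4 CPM (log2 fold change -1.17, SE 0.30, adjusted p = 0.00823), and its call was lost with total library size (-0.62, adjusted p = 0.0849) and with the top 20 genes removed from it (-0.73, adjusted p = 0.0512). Fga was at 414, 1036 and 1037 CPM (control), 564, 501 and 534 CPM (Atg7-KO) and 618, 765 and 568 CPM (S351A). Control replicate 1 was below all Atg7-KO livers and the other 2 control livers were far above them, so the groups overlapped (log2 fold change -0.64, SE 0.32, adjusted p = 0.131); without control replicate 1, Fga was called lower (-0.98, adjusted p = 0.00472).

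Within each library, which removes the scaling, the ratio of Fgg to Fga counts was 1.86, 1.19 and 1.51 in control, 0.774, 0.734 and 0.568 in Atg7-KO and 0.838, 0.698 and 0.870 in S351A. The Fgg to Fga ratios of the 3 control libraries lay above those of all 6 libraries with Cre. The ratio of Fgb to Fga was 2.85 ± 0.290 in control, 1.92 ± 0.171 in Atg7-KO and 1.81 ± 0.180 in S351A (mean ± SD, n = 3), again without overlap between control and the rest. These ratios were chosen after the values were seen and carry no test. F13b, the carrier subunit of the transglutaminase that crosslinks fibrin (on the + strand of chromosome 1, 139501702 to 139523752), was at 61.0, 60.9 and 82.8 CPM (control), 49.2, 37.7 and 38.4 CPM (Atg7-KO) and 58.6, 62.1 and 54.3 CPM (S351A). It fell in Atg7-KO (log2 fold change -0.71, SE 0.20, adjusted p = 0.0129), with the call lost under both library-size scalings (-0.16, adjusted p = 0.528, and -0.27, adjusted p = 0.277), without control replicate 3, where the fold fell short at -0.54, and without Atg7-KO replicate 2 (adjusted p = 0.0649) or 3 (adjusted p = 0.0584). Its S351A livers overlapped control.

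RefSeq promoter windows (250 bases before to 50 after the start, GRCm38.p6) were at hand for 32 of the 41 genes, 33 windows in all, and were searched on both strands for short motifs of liver transcription factors. The C/EBP motif TTGCNNAA stood in 11 of the 33 windows (33.3%) against 10.8% of the 32851 windows of all genes, the STAT3 motif TTCNNNGAA, which reads the same on both strands, in 8 (24.2%) against 8.3%, and the HNF4 motif CAAAGTCCA in 0 against 0.475%. Of the 21 genes with a window that were called lower in Atg7-KO, 6 held the C/EBP motif and 5 the STAT3 motif; of the other 11 genes with a window, 5 and 3 did. A match describes letters only and is not a binding site. The 250 bases before the start of Fgb hold the C/EBP and STAT3 motifs and those of Fgg hold none of the motifs. Both are shown 5′ to 3′ on the strand of the gene, with motif matches in capitals, for chr3:83049864-83050113 (- strand) and chr3:83007474-83007723 (+ strand).
Fgb: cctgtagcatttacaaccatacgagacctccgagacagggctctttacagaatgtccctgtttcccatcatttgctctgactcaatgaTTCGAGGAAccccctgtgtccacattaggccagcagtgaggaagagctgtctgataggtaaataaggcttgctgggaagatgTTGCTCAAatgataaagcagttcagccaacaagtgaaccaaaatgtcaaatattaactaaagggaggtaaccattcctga
Fgg: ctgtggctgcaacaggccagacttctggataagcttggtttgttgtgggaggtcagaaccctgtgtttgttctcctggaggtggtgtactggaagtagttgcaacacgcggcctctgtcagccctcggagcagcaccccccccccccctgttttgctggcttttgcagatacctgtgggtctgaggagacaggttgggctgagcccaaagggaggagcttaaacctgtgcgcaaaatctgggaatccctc

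Of the 2 coagulation inhibitors, 1 fell. Serpinc1 encodes antithrombin (on the + strand of chromosome 1, 160978585 to 161005863) and was at 1229, 2256 and 2572 CPM (control), 724, 719 and 786 CPM (Atg7-KO) and 803, 825 and 895 CPM (S351A). It fell in Atg7-KO without overlap (log2 fold change -1.44, SE 0.28, adjusted p = 0.00161). Serpind1, the heparin cofactor II gene, was at 227, 313 and 329 CPM (control), 213, 193 and 201 CPM (Atg7-KO) and 172, 323 and 217 CPM (S351A). Its Atg7-KO livers were all below control, but the difference did not pass the test (log2 fold change -0.52, SE 0.25, adjusted p = 0.126), and with total library size it was 0.03.

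Of the 5 genes of fibrinolysis and adhesive plasma proteins, 3 fell, 1 rose and 1 did not pass the test. Vtn, encoding vitronectin, which stabilises the plasminogen activator inhibitor and binds the terminal complement complex, was at 2239.6, 3660.4 and 2894 CPM (control), 1043, 894 and 960.5 CPM (Atg7-KO) and 1205, 1114 and 1322 CPM (S351A). Control did not overlap with Atg7-KO or S351A (log2 fold change -1.60, SE 0.25, adjusted p = 0.000429). Plg, the plasminogen gene, went from 1970.3 ± 198 CPM to 953 ± 48.3 CPM (log2 fold change -1.05, SE 0.22, adjusted p = 0.00295). Hrg, a plasma glycoprotein that binds heparin and plasminogen, went from 655 ± 131 CPM to 308 ± 16.5 CPM (log2 fold change -1.09, SE 0.23, adjusted p = 0.00259). With total library size both missed the threshold (Plg adjusted p = 0.0791, Hrg adjusted p = 0.0644). Serpinf2, encoding antiplasmin, was at 638, 823 and 703 CPM (control), 534, 573 and 544 CPM (Atg7-KO) and 466, 632 and 570.1 CPM (S351A), with all Atg7-KO livers below control and no call (log2 fold change -0.39, SE 0.22, adjusted p = 0.175); its direction turned with total library size (0.14) and with the top 20 genes removed from it (0.04).

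Cpb2 encodes the carboxypeptidase (TAFI) that removes plasminogen-binding residues from fibrin (on the + strand of chromosome 14, 75242287 to 75283555). It was the single member called higher, at 99.2, 147 and 306 CPM (control), 398, 357 and 362 CPM (Atg7-KO) and 301, 181 and 160.4 CPM (S351A). Every Atg7-KO liver lay above every control liver, and the control livers were spread widely, from 99.2 to 306 CPM (log2 fold change 1.01, SE 0.37, adjusted p = 0.0466). The call was close to the threshold: it was lost without control replicate 1 (adjusted p = 0.132) or 2 (0.126), without any 1 of the Atg7-KO replicates (0.0934 to 0.119) and without S351A replicate 2 (0.0668) or 3 (0.0518), while the log2 fold change stayed between 0.69 and 1.59 over the alternatives, the latter without control replicate 3.

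Outside the 41, a list of 16 other coagulation and fibrinolysis genes, many of them made by cells other than hepatocytes, had 8 genes with enough counts, of which 4 rose and 1, Kng2, fell in Atg7-KO. Plat, the tissue plasminogen activator, was at 0.424 ± 0.734 CPM in control, a level near the floor, and 16.2 ± 1.99 CPM in Atg7-KO (adjusted p = 0.000108). Plau, the urokinase gene, went from 1.28 ± 0.122 CPM to 5.30 ± 1.59 CPM (log2 fold change 2.02, SE 0.49, adjusted p = 0.00655). Its control libraries held 2, 4 and 13 counts, with replicate 1 below the floor of 3. F2r, a thrombin receptor, went from 18.9 ± 11.1 CPM to 60.9 ± 5.48 CPM (log2 fold change 1.66, SE 0.40, adjusted p = 0.00622). The fourth was Serpina10. F8, which sinusoidal endothelial cells make, was at 6.92 ± 2.84 CPM and 2.79 ± 1.37 CPM, with no call (adjusted p = 0.0712).

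In central and alternative complement, 1 of 3 genes fell. C3, the hub of all 3 routes, was at 3792 ± 1326 CPM in control and 2735 ± 336 CPM in Atg7-KO, with overlapping livers and no call (log2 fold change -0.47, SE 0.29, adjusted p = 0.221), and total library size turned its sign (0.07). Cfb, the protease of the alternative C3 convertase (on the - strand of chromosome 17, 34856374 to 34862518), was at 1223, 1544 and 1179 CPM (control), 653, 625 and 682 CPM (Atg7-KO) and 877, 822 and 829 CPM (S351A). It fell without overlap (log2 fold change -1.01, SE 0.22, adjusted p = 0.00299), with the fold or the p short of the thresholds under both library-size scalings (-0.48, adjusted p = 0.0962, and -0.58, adjusted p = 0.0441). Cfi, the protease that inactivates C3b, was at 244, 307 and 443 CPM (control), 279, 219 and 229 CPM (Atg7-KO) and 276, 248 and 251 CPM (S351A), with overlapping groups and no call (log2 fold change -0.45, SE 0.24, adjusted p = 0.158); with total library size its change was 0.11, and without control replicate 1 it was called lower (-0.65, adjusted p = 0.0408).

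None of the 5 classical complement genes was called in Atg7-KO by edgeR, and their log2 fold changes ran from -0.53 to 0.34; at an unadjusted p under 0.05 there was 1, Serping1, and neither DESeq2 nor limma-voom called any of them. Serping1, the C1 inhibitor, was at 317, 424 and 509 CPM (control), 308, 296 and 263 CPM (Atg7-KO) and 299, 416 and 389 CPM (S351A), with all Atg7-KO livers below control (log2 fold change -0.53, SE 0.24, adjusted p = 0.0953); it was called lower without control replicate 1 (-0.71, adjusted p = 0.0268) and turned with total library size (0.02). C2, the protease of the classical and lectin C3 convertase, was at 133, 84.9 and 124 CPM (control), 121, 114 and 118 CPM (Atg7-KO) and 91.9, 135 and 109 CPM (S351A). All groups overlapped, and the 95% interval of the log2 fold change ran from -0.44 to 0.53 (log2 fold change 0.04, SE 0.22, adjusted p = 0.9), with the sign depending on the filter, the depth and control replicate 2. C2 and Cfb are paralogs that lie 85 bp apart on the same strand of chromosome 17, and both overlap the readthrough gene Gm20547, which can take a part of their reads. The count ratio of Cfb to C2 was 9.16, 18.2 and 9.53 in control, 5.40, 5.49 and 5.80 in Atg7-KO and 9.54, 6.07 and 7.64 in S351A, so that control and Atg7-KO did not overlap while S351A overlapped control.

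C4b, the fourth component, was at 1847 ± 439.6 CPM in control and 1407 ± 39.3 CPM in Atg7-KO (log2 fold change -0.39, SE 0.25, adjusted p = 0.23), and C1ra, a protease of the C1 complex, at 278 ± 90.2 CPM and 197 ± 16.3 CPM (log2 fold change -0.50, SE 0.24, adjusted p = 0.119). Total library size turned the sign of both (C4b 0.13, C1ra 0.06), and C1ra was called lower without control replicate 1 (-0.71, adjusted p = 0.0239). C4bp, an inhibitor that binds C4b and in humans forms a complex with protein S, was at 346 ± 70.7 CPM and 439 ± 14.0 CPM (log2 fold change 0.34, SE 0.21, adjusted p = 0.227), with all 3 Atg7-KO livers above control. C4bp and Pros1 were both called higher with total library size (C4bp 0.89). The count ratio of C4bp to Pros1 was 4.11, 4.13 and 6.32 in control, 4.63, 4.61 and 4.61 in Atg7-KO and 5.01, 4.99 and 6.81 in S351A. The 3 Atg7-KO livers had nearly the same C4bp to Pros1 ratio, within the range of the control livers.

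Of the 4 lectin complement genes, 2 (Mbl1 and Masp2) fell. Mbl1 and Mbl2 encode the mannose-binding lectins A and C, paralogs that recognise microbial sugars. Mbl1 (on the + strand of chromosome 14, 41151458 to 41159601) was at 207, 282 and 285 CPM (control), 78.2, 80.4 and 83.7 CPM (Atg7-KO) and 83.9, 95.6 and 109.8 CPM (S351A). No liver with Cre came near the lowest control liver (log2 fold change -1.68, SE 0.21, adjusted p = 8.08e-05). Mbl2 (on the + strand of chromosome 19, 30232942 to 30239687) was at 147, 259 and 251 CPM (control), 169, 212 and 223 CPM (Atg7-KO) and 237, 174 and 186 CPM (S351A), and all groups overlapped (log2 fold change -0.13, SE 0.25, adjusted p = 0.728); the 95% interval ran from -0.67 to 0.42, and the sign turned with total library size (0.42) and with the top 20 genes removed from it (0.31). The count ratio of Mbl1 to Mbl2 was 1.41, 1.09 and 1.13 in control, 0.464, 0.378 and 0.375 in Atg7-KO and 0.354, 0.550 and 0.589 in S351A. The 3 control ratios were all above 1 and the 6 others all below 0.6. The bases before the 2 starts are shown since the paralogs differed in these livers. Neither held any of the motifs above, and the capitals mark their longest shared run, 13 bases that begin 23 bases before the start in Mbl1 (chr14:41151206-41151455, + strand) and 57 bases before it in Mbl2 (chr19:30232678-30232927, + strand).
Mbl1: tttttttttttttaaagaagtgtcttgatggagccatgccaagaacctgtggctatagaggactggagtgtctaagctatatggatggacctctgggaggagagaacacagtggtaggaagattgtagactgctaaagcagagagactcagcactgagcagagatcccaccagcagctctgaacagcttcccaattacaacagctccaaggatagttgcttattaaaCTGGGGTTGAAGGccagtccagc
Mbl2: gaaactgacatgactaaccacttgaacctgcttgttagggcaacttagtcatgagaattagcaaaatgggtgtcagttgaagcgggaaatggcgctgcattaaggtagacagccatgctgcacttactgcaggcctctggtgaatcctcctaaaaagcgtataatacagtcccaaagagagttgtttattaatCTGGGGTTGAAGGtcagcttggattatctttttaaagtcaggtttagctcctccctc

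Masp2, the lectin-associated protease that cuts C4 and C2 (on the + strand of chromosome 4, 148602554 to 148615499), was at 275, 339 and 356 CPM (control), 65.0, 66.8 and 62.2 CPM (Atg7-KO) and 82.7, 86.9 and 136 CPM (S351A). Its 3 Atg7-KO livers lay close together and far below the lowest control liver (log2 fold change -2.32, SE 0.24, adjusted p = 2.24e-05). Masp2 overlaps Tardbp on the other strand, and the strand setting of the counting is not given in the sources used here. Masp1 was the rarest member, at 11.9 ± 4.82 CPM in control and 8.75 ± 2.63 CPM in Atg7-KO, with overlapping livers and no call (log2 fold change -0.45, SE 0.38, adjusted p = 0.383, and with total library size 0.13). In S351A it rested on 7 to 18 counts.

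**Figure D3:**
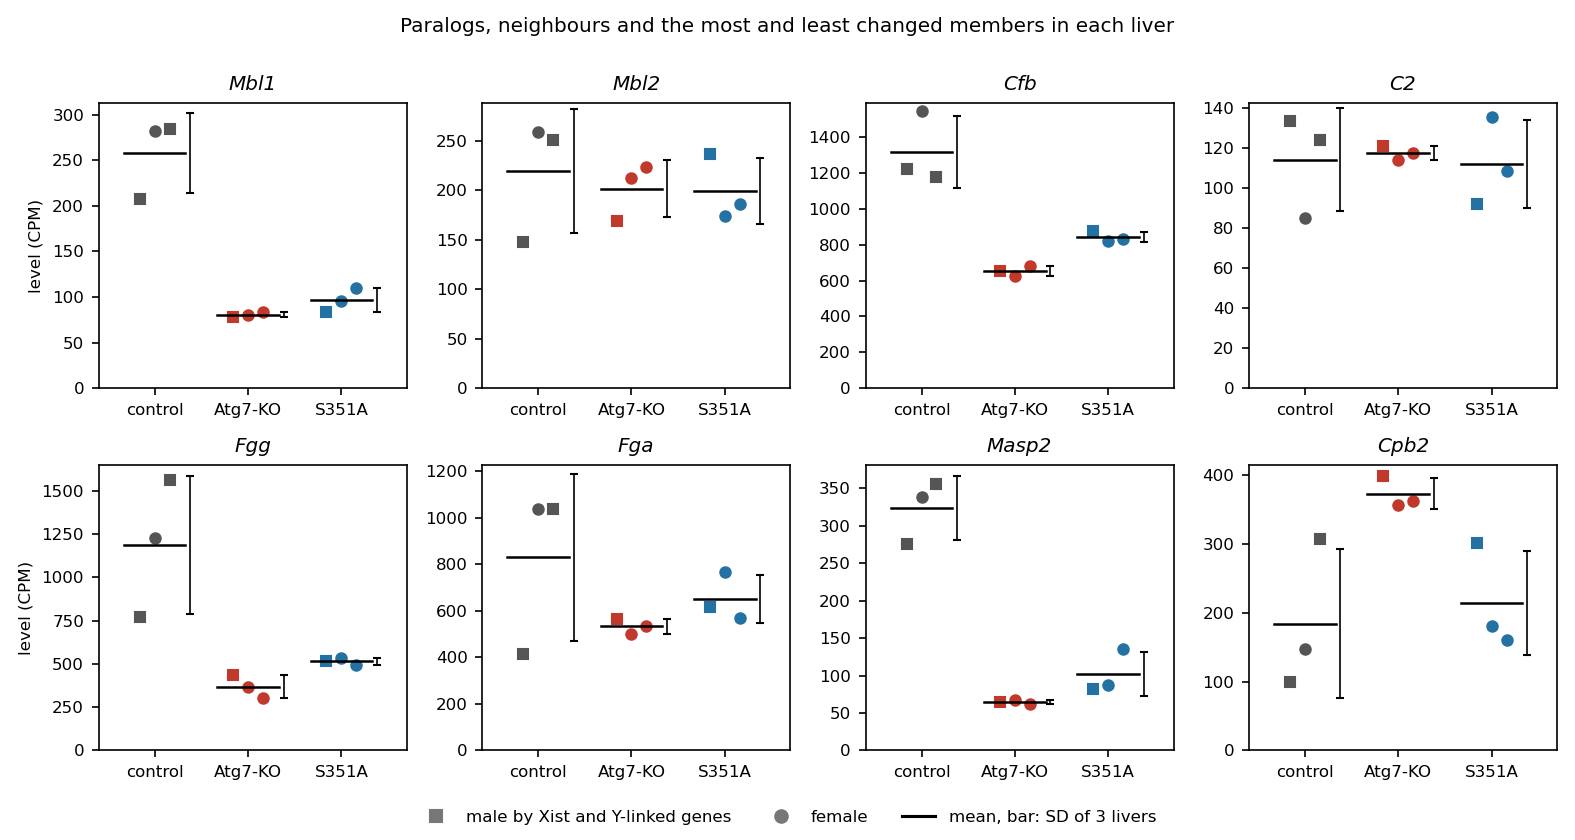
Level in CPM (vertical axis, from 0) of 8 members in each liver by group, squares for males and circles for females; lines are means and bars the SD of 3 livers. Mbl1 and Masp2 fall in both groups with Cre while Mbl2 and C2 overlap in all groups, the latter 2 with a sign that depends on the scaling or filter; Cpb2 is above all control livers in Atg7-KO and overlaps them in S351A.

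**Figure D4:**
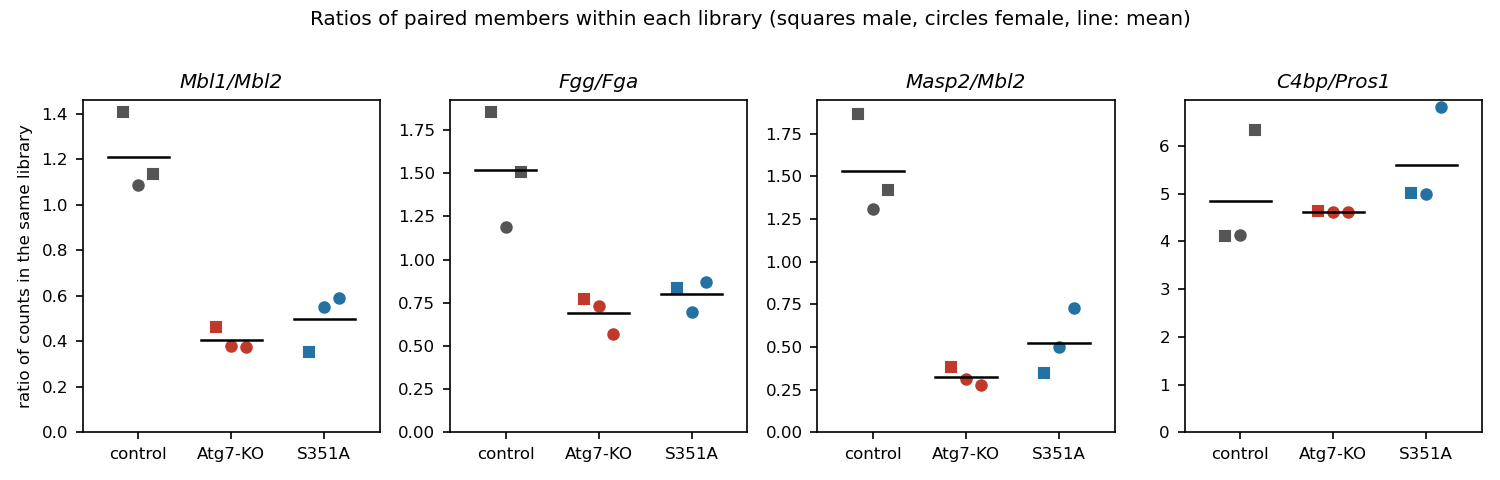
Ratio of counts of 2 members in the same library (vertical axis, from 0) by group, squares for males and circles for females; lines are means of 3 livers. Mbl1/Mbl2, Fgg/Fga and Masp2/Mbl2 are higher in every control library than in every other library, and C4bp/Pros1 overlaps between control and Atg7-KO.

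Of the 6 terminal complement genes, 5 fell in Atg7-KO. The median log2 fold change of the 6, -2.11, was the lowest of the 9 role groups in the fit of all livers. By log2 ratios of mean levels, that rank held among males but not among females. In females, with 1 control liver, the ratios were -2.35 (C8a), -2.30 (C8g), -0.95 (C8b), -0.61 (Hc), -0.43 (C6) and 0.70 (C9). C8a, the alpha chain of C8 (on the - strand of chromosome 4, 104815679 to 104876398), was at 1033, 374 and 949 CPM (control), 148, 72.9 and 73.7 CPM (Atg7-KO) and 289.5, 194 and 252 CPM (S351A). Groups did not overlap, and the fall was the largest of all 41 genes in the fit of all livers (log2 fold change -2.99, SE 0.41, adjusted p = 0.000165). Within each sex other genes fell further, by log2 ratios of mean levels. These were C6 in males (-2.77 against -2.74 for C8a) and F7 and Masp2 in females (-2.54 and -2.39 against -2.35). C8g, the gamma chain, is encoded on another chromosome and was at 623 ± 77.3 CPM (control), 125 ± 5.49 CPM (Atg7-KO) and 170.0 ± 25.7 CPM in the S351A livers; it had the smallest adjusted p of the 41 (log2 fold change -2.32, SE 0.22, adjusted p = 1.15e-05). C8b, the beta chain, lies 11.1 kb from C8a and was at 95.4, 46.5 and 208 CPM in control and 45.7, 27.6 and 20.6 CPM in Atg7-KO (log2 fold change -1.89, SE 0.46, adjusted p = 0.00596). Without control replicate 3, its highest liver, the C8b change was -1.13, adjusted p = 0.0242. Hc, which encodes C5, went from 1145 ± 431 CPM to 540.0 ± 67.1 CPM (log2 fold change -1.08, SE 0.28, adjusted p = 0.00826), a call lost under both library-size scalings (-0.56, adjusted p = 0.134, and -0.66, adjusted p = 0.0772). The 250 bases before the starts of C8a and C8b are shown since these neighbours both fell; capitals mark a STAT3 motif in C8a, and C8b holds none of the motifs (chr4:104876399-104876648, - strand, and chr4:104766067-104766316, + strand).
C8a: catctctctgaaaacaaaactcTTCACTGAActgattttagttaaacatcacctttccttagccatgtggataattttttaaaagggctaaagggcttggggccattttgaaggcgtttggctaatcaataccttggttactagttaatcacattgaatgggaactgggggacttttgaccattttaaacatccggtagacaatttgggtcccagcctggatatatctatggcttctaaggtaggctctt
C8b: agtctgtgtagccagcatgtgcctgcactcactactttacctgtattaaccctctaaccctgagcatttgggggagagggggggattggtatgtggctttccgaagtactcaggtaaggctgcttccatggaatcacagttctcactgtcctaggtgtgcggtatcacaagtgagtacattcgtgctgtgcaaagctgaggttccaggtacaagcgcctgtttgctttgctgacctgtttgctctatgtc

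The levels of C6, C8a, C8b, C9 and Hc were lower in the female control liver than in both males and highest in the male liver of Atg7-KO. A fit of group and sex over the 9 livers (4 males and 5 females), added after these values were seen, called 1 of the 41 genes higher in males, C6 (log2 male minus female 2.26, SE 0.42, adjusted p = 0.0463), against 0.143% of all genes tested. Unadjusted p-values were 0.00105 for C8a, 0.00329 for C8b, 0.00332 for C9 and 0.17 for Hc, with adjusted p-values of 0.13, 0.246, 0.246 and 0.872 in edgeR. C6, another component of the pore, was at 474, 25.4 and 189 CPM (control), 48.7, 19.4 and 18.3 CPM (Atg7-KO) and 159.7, 45.9 and 45.7 CPM (S351A), where replicate 1 of each group and replicate 3 of control were the males. The male control livers were at 474 and 189 CPM and the female at 25.4, so the groups overlapped although the test called the fall (log2 fold change -2.95, SE 0.82, adjusted p = 0.0132). With sex as a covariate the C6 change was -1.84 (adjusted p = 0.0134); without control replicate 1 it was -1.91 and no longer called (adjusted p = 0.0592), and the call was lost as well without Atg7-KO replicate 2 (adjusted p = 0.0551) or 3 (adjusted p = 0.0568) and in limma-voom (adjusted p = 0.052). C9, which completes the pore, was at 334, 82.4 and 328 CPM (control), 205, 131 and 136 CPM (Atg7-KO) and 263, 214 and 168 CPM (S351A). It was the terminal gene that did not pass the test (log2 fold change -0.66, SE 0.42, adjusted p = 0.239), and it was called lower without control replicate 2, the female (-1.08, adjusted p = 0.00821). For C8g the female control liver lay between the 2 males.

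**Figure D5:**
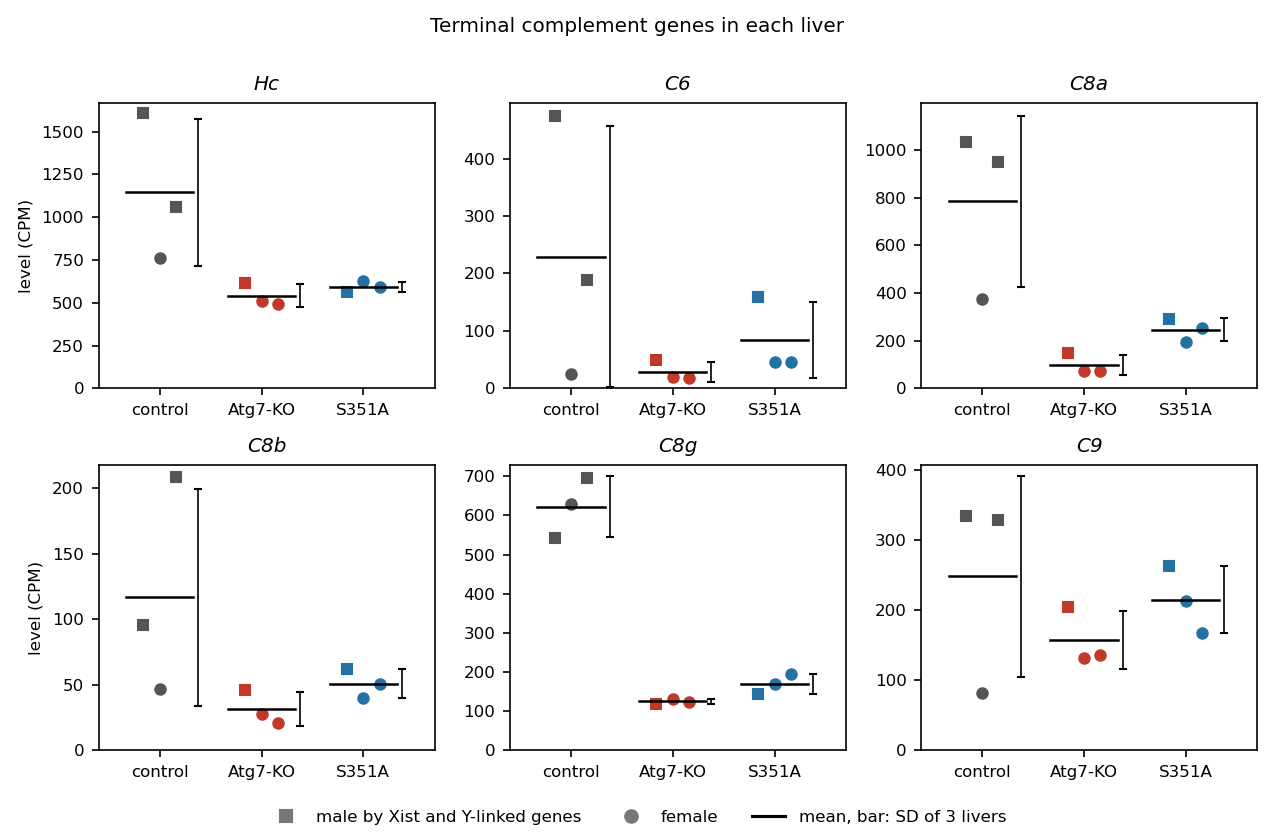
Level in CPM (vertical axis, from 0) of the 6 terminal complement genes in each liver by group, squares for males and circles for females; lines are means and bars the SD of 3 livers. C8g and C8a are lower in every Atg7-KO liver than in every control liver, and for C9 the female control liver is below all livers of the other groups.

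Control held 1 female and Atg7-KO 2, so the counts were also read within each sex. Among males, 32 of the 41 genes were lower in the Atg7-KO liver than in both control livers, and 3 were higher, against 37.6% and 38.5% of all genes tested. Among females, 35 were lower in both Atg7-KO livers than in the control liver, and 5 were higher, against 43.9% and 44.2% of all genes tested. The medians of the log2 ratios of mean levels were -0.98 in males and -0.95 in females. With sex as a covariate, 25 members were called lower and 1 higher, as many as without it.

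A list of 25 other complement genes, of which 17 had enough counts, gave 6 higher and 6 lower in Atg7-KO. C1qa, C1qb and C1qc, which macrophages make, rose with C3ar1, Cfp and Clu. C1qb went from 20.6 ± 4.92 CPM to 82.1 ± 2.28 CPM (log2 fold change 1.98, SE 0.23, adjusted p = 4.55e-05). C3ar1, the C3a receptor, rose as well (log2 fold change 2.77, SE 0.44, adjusted p = 0.000443). Its control libraries held 1, 9 and 18 counts, with replicate 1 below the floor of 3. Clu, encoding the terminal complex inhibitor clusterin, went from 506 ± 119 CPM to 1398 ± 61.8 CPM (log2 fold change 1.46, SE 0.28, adjusted p = 0.00138). Colec10, a collectin of the lectin route, went from 25.3 ± 4.66 CPM to 1.61 ± 1.40 CPM (adjusted p = 3.04e-05), where the Atg7-KO libraries held 3, 9 and 2 counts, near the floor. Fcna, encoding ficolin A, went from 45.3 ± 19.2 CPM to 10.9 ± 2.74 CPM (log2 fold change -2.10, SE 0.36, adjusted p = 0.000715), and C1s1, a protease of the C1 complex, from 773 ± 119 CPM to 442 ± 25.2 CPM (log2 fold change -0.81, SE 0.25, adjusted p = 0.0217).

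Of 15 regulators of secreted hepatocyte genes, 2 fell and none rose. Nr1h4, the bile acid receptor FXR, went from 297 ± 51.4 CPM to 97.4 ± 5.24 CPM (log2 fold change -1.61, SE 0.28, adjusted p = 0.000853) and Foxa2 from 45.4 ± 6.34 CPM to 22.9 ± 2.36 CPM (log2 fold change -0.98, SE 0.21, adjusted p = 0.00315). Hnf4a was at 556 ± 139 CPM and 724 ± 109 CPM (adjusted p = 0.251), Cebpa at 293 ± 47.1 CPM and 221 ± 16.2 CPM (adjusted p = 0.178) and Stat3 at 80.4 ± 13.2 CPM and 111 ± 3.54 CPM (adjusted p = 0.103), none of them called.

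Markers of cell types moved with the same groups. Of 6 hepatocyte markers, 4 fell in Atg7-KO (Alb, Ttr, Apoa1 and Ahsg, log2 fold changes -1.17, -1.49, -1.22 and -1.16), while Apob (0.22) and Trf (-0.58) did not pass the test. The summed level of the 6 was 51147 to 113783 CPM in control, 39857 to 45881 in Atg7-KO and 38068 to 49625 in S351A, with the lowest control value in replicate 1. The 5 tested of 6 ductular markers all rose (sum 47.5 to 83.3 CPM in control and 819 to 1208 in Atg7-KO), as did 5 of 6 stellate and matrix markers (252 to 515 and 1207 to 1668), with Spp1 (4.37) at the top of the former list and Col1a1 (4.45) of the latter. Of 8 macrophage markers, 4 rose and none fell (214 to 330.3 and 293 to 382), with Cd68 at 1.52 and the Kupffer cell gene Clec4f at -0.16, not called. Of 6 endothelial markers 1 rose and 3 fell (104 to 193 and 129.6 to 155), and of the erythroid and platelet markers 4 of 8 had enough counts and 1, Alas2, fell, with Hba-a1 at 0 in every library (126 to 265 and 21.5 to 44.1). In whole liver, fewer hepatocytes and less of an mRNA per hepatocyte cannot be told apart, and the part of these shifts in the falls above was not tested.

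The S351A comparison addressed whether the p62 allele changes these mRNAs when Atg7 is absent. No member was called between S351A and Atg7-KO, in either direction, by edgeR (0 of 41; background 0% of all genes higher and 0.00893% lower) or by DESeq2 or limma-voom. At an unadjusted p under 0.05 there were 5 members, all higher in S351A, against 3.38% of all genes tested, and none lower against 3.21%. The number at that p, in either direction, fell to 1 when Atg7-KO replicate 3 was left out and to 2 when replicate 2 of either group was. It was 9 and 8 without control replicates 1 and 3. With the 6 compared libraries alone it was 13. The fitted change was positive for 36 of the 41 (34 to 38 over all alternatives), and the median was 0.26 against 0.01 for all genes. In 16 members (39%) every S351A liver was above every Atg7-KO liver, against 7.67% of all genes tested, and in 2 (Pros1 and Cpb2) every S351A liver was below, against 9.23%. After all libraries were thinned to the depth of the smallest, the median was 0.25 and again none was called.

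The 5 members were F10, F5, F13b, Masp2 and C8a. C8a had the smallest p, at a log2 fold change of 1.31 (SE 0.39, unadjusted p = 0.00572, adjusted p = 0.568), with its S351A livers at 289.5, 194 and 252 CPM against 148, 72.9 and 73.7 CPM in Atg7-KO. Its adjusted p ranged from 0.0313, without a filter on low counts, where it was called, to 1, and C8a thus lay in S351A between the other groups without overlap with Atg7-KO. Masp2 followed at 0.65 (SE 0.23, unadjusted p = 0.0162, adjusted p = 0.692), F5 at 0.53 (unadjusted p = 0.0226, adjusted p = 0.696), F10 at 0.53 (unadjusted p = 0.0397, adjusted p = 0.75) and F13b at 0.48 (unadjusted p = 0.043, adjusted p = 0.755). Every S351A liver was above every Atg7-KO liver for each of the 5. Cpb2, the gene called higher in Atg7-KO, was lower in all S351A livers than in all Atg7-KO livers, with a log2 fold change of -0.80 (adjusted p = 0.756), and overlapped control.

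Set against control, the S351A livers had 19 of the 41 genes called lower (46.3%, background 13%) and none higher (background 15.6%); at an unadjusted p under 0.05 there were 23 lower and none higher, against 19.9% and 21.1% of all genes, and DESeq2 and limma-voom called none higher either. Total library size gave 9 lower and 3 higher (C4bp, F5 and Pros1), against 4.55% and 31.6% of all genes, with a median of -0.16. With the top 20 genes removed from it 13 were lower and 2 higher, against 5.7% and 27.1%, with a median of -0.26. In 21 genes every S351A liver was below every control liver, against 18.4% of all genes tested, and in 1, C4bp, every S351A liver was above, against 19.6%. The median log2 fold change was -0.64, with all genes at -0.03. The markers of cell types moved here too: 4 of 6 hepatocyte markers were called lower, and 5 of 5 tested ductular, 5 of 6 stellate and matrix, 4 of 8 macrophage and 1 of 6 endothelial markers higher, with 1 of 4 tested erythroid and platelet markers lower. Their summed levels in S351A were 720.2 to 1199 CPM (ductular), 1118 to 1615 CPM (stellate and matrix), 262 to 290.0 CPM (macrophage), 113 to 142 CPM (endothelial) and 35.8 to 56.3 CPM (erythroid and platelet), and their part in the S351A values was not tested. This comparison shares the control livers with that of Atg7-KO, so the 2 are not independent and their values are only set side by side. By role, the genes called lower in S351A were 4 of 7 vitamin K-dependent factors, 3 of 5 cofactor and contact factors, 2 of 4 in fibrin formation, 1 of 2 inhibitors, 3 of 5 in fibrinolysis and adhesion, 1 of 3 in central and alternative complement, 0 of 5 in classical complement, 2 of 4 in lectin complement and 3 of 6 in terminal complement. C8g was lowest in S351A (log2 fold change -1.87, SE 0.22, adjusted p = 9.95e-05), then C8a (log2 fold change -1.68, SE 0.39, adjusted p = 0.00767), Masp2 (log2 fold change -1.67, SE 0.24, adjusted p = 0.000398) and F7 (log2 fold change -1.66, SE 0.34, adjusted p = 0.00368). The same call was made for Mbl1 (log2 fold change -1.42, SE 0.21, adjusted p = 0.000541), Vtn (log2 fold change -1.27, SE 0.25, adjusted p = 0.00295), Serpinc1 (log2 fold change -1.26, SE 0.28, adjusted p = 0.00555), Fgg (log2 fold change -1.21, SE 0.28, adjusted p = 0.00684), Klkb1 (log2 fold change -0.86, SE 0.24, adjusted p = 0.0177) and Cfb (log2 fold change -0.64, SE 0.22, adjusted p = 0.0422) among the genes given by liver above. The Cfb call was lost in 13 of the 21 alternatives, and that of Klkb1 was lost with the 6 compared libraries alone (adjusted p = 0.0918), without S351A replicate 1 (adjusted p = 0.0731) or 2 (adjusted p = 0.0581) and under both library-size scalings. Fgg was lost with total library size (adjusted p = 0.0524). The order of the lowest genes is that of the fit of all livers. By log2 ratios of mean levels, F7 was lowest among males (-2.30), with C8g at -2.10 and C8a at -1.775. Among females F2 was lowest (-1.83), with C8g at -1.79 and C8a at -0.75. With sex as a covariate 18 members were called lower and 0 higher, against 13.1% and 15.6% of all genes.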

How the data were processed

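Poly(A) RNA of 9 livers had been sequenced as single-end reads. The authors trimmed reads with Trim Galore, aligned them to mm10 with STAR and estimated expected counts per gene with RSEM; versions, annotation and strand setting are not given in the sources used here. The deposited table holds these expected counts, not normalised, for 24411 genes; they were rounded to whole numbers. Other genotypes of the study are not analysed here.

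All 9 libraries entered 1 fit with edgeR 4.0.16 in R 4.3.3: genes filtered by filterByExpr (minimum count 10, minimum total 15), TMM factors, the quasi-likelihood test and Benjamini-Hochberg adjustment over 11199 genes. A call needed an adjusted p under 0.05 and a fold change above 1.5. SE is the log2 fold change divided by the root of the F statistic. Levels are CPM on the TMM scale, per kb of exon from GENCODE M21 where compared between genes. Intervals are 95%, and the floor of 3 counts covers counting error only. In the main fit, p-values weigh the difference between 2 groups against a spread between the livers of a group. That spread was estimated once per gene over all 3 groups, so control livers enter the S351A against Atg7-KO p-values too. Expected counts can be divided between overlapping genes or paralogs. Alternatives used DESeq2 1.42.0, limma 3.58.1, other scalings and filters, thinning, sex, a replicate block and each library left out. Figures were drawn with matplotlib 3.10.9.

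The members and gene lists were chosen with earlier results of these data known. Values in every liver are given by rule for the gene of each role with the largest and that with the smallest absolute change in Atg7-KO against control, for called genes opposite to the majority, and for genes with an unadjusted p under 0.05 in S351A against Atg7-KO; of other lists, at most 6 called genes are named with values. Mbl1, C6 and C8b were given by liver, and Spp1, C1qc, C1s1 and uncalled genes of the other lists named, after their values were seen. The deviations of same-numbered libraries from their group means correlated at 0.235, 0.175 and 0.160 between control and S351A, all over 0.1, at 0.248, 0.0913 and -0.041 between control and Atg7-KO, and at 0.306, 0.0738 and 0.0919 between Atg7-KO and S351A, for replicates 1 to 3; no label says what a number marks, and replicate 1 was male and replicate 2 female in every group. Some genes of the other lists are not reported here.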

Additional observations from a re-analysis of the deposited data

Results flagged for a closer look

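Sex, read from Xist and Y-linked genes and given in no label used here, opposed the direction of 2 of the 41 genes (4.88%) in Atg7-KO against control, against 8.16% of all genes tested, where every liver of one sex moved one way and every liver of the other sex the opposite way. For C2 the log2 ratio of Atg7-KO to control was -0.090 in males and 0.45 in females. For C9 it was -0.69 in males and 0.70 in females. The comparison within a sex sets 1 liver against 2, and the difference between the sexes was not tested. The same opposition was seen for 7 genes (17.1%, against 15.5% of all genes) in S351A against Atg7-KO and for 4 (9.76%, against 9.08%) in S351A against control.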

How the results depend on the processing

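In Atg7-KO against control, total library size gave 3 genes called higher, 16 lower and a median of -0.52, and that with the top 20 genes removed gave 3 higher and a median of -0.62; the genes added as higher were C4bp and Pros1. In S351A against control the same scalings gave 3 and 2 higher, 9 lower with the former, and medians of -0.16 and -0.26. In S351A against Atg7-KO they gave medians of 0.21 and 0.22; no filter gave 0.20 and 1 gene higher (C8a). These scalings turned the sign in Atg7-KO against control of F5 (0.12 and 0.0094), Serpinf2 (0.14 and 0.037), Mbl2 (0.42 and 0.31), C4b (0.13 and 0.028) and Masp1 (0.13 and 0.0024), and the former that of Serpind1 (0.031), Cfi (0.11), Serping1 (0.024), C3 (0.065) and C1ra (0.061). C2 turned with no filter (-0.0039), after thinning (-0.042) and without control replicate 2, the libraries left out one at a time giving -0.14 to 0.15. At an adjusted p under 0.01 and a fold above 2, 0 genes were higher in Atg7-KO. The cause was not tested. Leaving out 1 library at a time gave 0 to 1 genes higher in Atg7-KO (0 without control replicate 1 or 2, any 1 Atg7-KO replicate, or S351A replicate 2 or 3), 22 to 28 lower, and a median of 0.23 to 0.32 in S351A against Atg7-KO, highest without S351A replicate 1. In all 21 alternatives, 15 genes stayed called lower in Atg7-KO and 9 in S351A against control. With the replicate block, 25 genes were lower and 1 higher in Atg7-KO, with a median of -1.05; 19 were lower in S351A, and the median against Atg7-KO was 0.24. The block changed no call of a member in any of the 3 comparisons. Replicate 1 was male and replicate 2 female in every group. The mean squared difference between 2 replicates, over the variance expected from counting alone, was 42.3 to 192 in control pairs. It was 2.30 to 7.17 in Atg7-KO pairs and 4.97 to 9.30 in S351A pairs.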
